A study of Mus musculus with 18 samples.

Results

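The transcripts of 7 transcription factor genes of natural killer (NK) cells and other lymphocytes, Eomes, Tbx21, Gata3, Tox, Nfil3, Prdm1 and Runx3, were followed in 3 cell populations of mouse spleen. The members were chosen by gene symbol in the platform annotation, not by their signals. Of the 7 genes 6 had a probe set, among 15964 genes on the array set, and they had 14 of its 36701 probe sets other than controls. Eomes had 2 probe sets, Gata3 3, Tox 4, Nfil3 3, Prdm1 1 and Runx3 1, while no probe set was annotated to Tbx21, which encodes T-bet, and it was not analysed here. A probe set is a group of short oligonucleotides designed against 1 transcript, and its signal intensity is a relative measure that was not compared between probe sets.

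The first population was labelled interferon producing killer-dendritic cells (IKDC), a spleen population described with features of both NK and dendritic cells. The second was conventional dendritic cells (cDC), the control in the submitters' design, and the third was Plasmacytoid DC (PDC), the main producers of type I interferon. Each population had 2 samples that were prepared separately, and each of the 6 samples was hybridised to Affymetrix U74A, U74B and U74C arrays, giving 18 arrays. All 3 populations are labelled as spleen cells with no treatment named, and no genetic alteration is labelled. Strain, age, the number of animals and the sorting gates are not given in the sources used here, so the p-values measure only the spread between these samples, which may in part be technical. In sorted cells measured in bulk, fewer cells of a type and less RNA per cell cannot be told apart.

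NK cells and the other innate lymphocytes arise from lymphoid progenitors under the control of a small set of transcription factors. Nfil3 and Tox act early in NK cell development, and the T-box factors T-bet and Eomes drive later maturation, the cytotoxic programme and interferon gamma production. Gata3 is required in T cells and type 2 innate lymphocytes and also takes part in thymic NK cell development, Runx3 supports NK and CD8 T cell differentiation, and Prdm1 (Blimp-1) acts in terminal differentiation of lymphocytes and in plasma cells. In dendritic cells Nfil3 is known for its part in the development of the cross-presenting subset, so it is not specific to lymphocytes.

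Most but not all defining markers followed the labels. Of 13 NK cell markers 11 were tested, all 11 were higher in IKDC than in cDC and than in PDC, and their summed signal was 52480 and 57589 in the IKDC samples against 3443 to 5749 in the other 4. All 8 PDC markers were higher in PDC than in cDC, and 7 of 10 cDC markers tested were lower in IKDC than in cDC. Fewer cDC markers, 4 of 10, were lower in PDC than in cDC, and Cadm1 had means of 7032 in PDC and 3960 in cDC (adjusted p = 0.138). Itgax, which encodes CD11c, did not pass between IKDC and cDC (-0.62 ± 0.31, adjusted p = 0.316), and the NK marker Klrb1c was not tested. The share of all 12193 genes called was 3.5% higher and 4.07% lower in IKDC against cDC, 2.71% higher in IKDC against PDC and 2.25% higher in PDC against cDC. Median signal per array was 51.7 to 87.3. On U74A the Gapdh control probe sets, whose ratio of 3' to 5' signal grows as transcripts are shortened, gave 5.996 in PDC replicate 1 and 3.19 in PDC replicate 2, while the other 4 samples had 3.34 to 4.74. PDC replicate 1 was also highest on U74B at 5.11, but on U74C cDC replicate 1 was highest at 5.84 and PDC replicate 1 had 5.45. On U74C, PDC replicate 2 correlated with IKDC replicate 2 at 0.817 across tested probe sets and with PDC replicate 1 at 0.809.

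Eomes was the member that set IKDC apart most clearly, and Tox and Gata3 were also higher in IKDC by some of their probe sets. Differences are given on the log2(signal + 16) scale with their SE, which understates changes of low signals, and adjusted p is from limma over 23285 probe sets with a threshold of 0.05. A signal of 60 on at least 2 of 6 arrays was required for testing, and 12 of the 14 member probe sets met it. In IKDC against cDC 4 of the 12 were higher and none lower, where 2.68% of all tested probe sets were higher and 2.92% lower. In IKDC against PDC 6 were higher and none lower, where the background was 2.06% higher and 2.39% lower. In PDC against cDC none of the 12 passed by limma, 2 had an unadjusted p under 0.05, and the background was 1.73% higher and 1.92% lower, or 14.9% at that unadjusted p. The median log2 difference over the 12 was 1.22, 2.08 and -0.04 in these comparisons, beside -0.01, -0.02 and -0.01 over all tested probe sets. Both Eomes and 2 Gata3 probe sets reached 60 only in IKDC, so their passing the minimum already required a difference, and these counts describe the members without supporting them. The calls depended on single samples: they numbered 2 to 4 in IKDC against cDC and 2 to 6 in IKDC against PDC when 1 sample was left out. IKDC replicate 1 or 2 left 2 each in the first comparison. In the second only Eomes stayed called without IKDC replicate 1 or PDC replicate 2, and Eomes and Nfil3 102955_at without IKDC replicate 2. Without PDC replicate 2 Tox 167969_at was newly called.

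**Figure D1:**
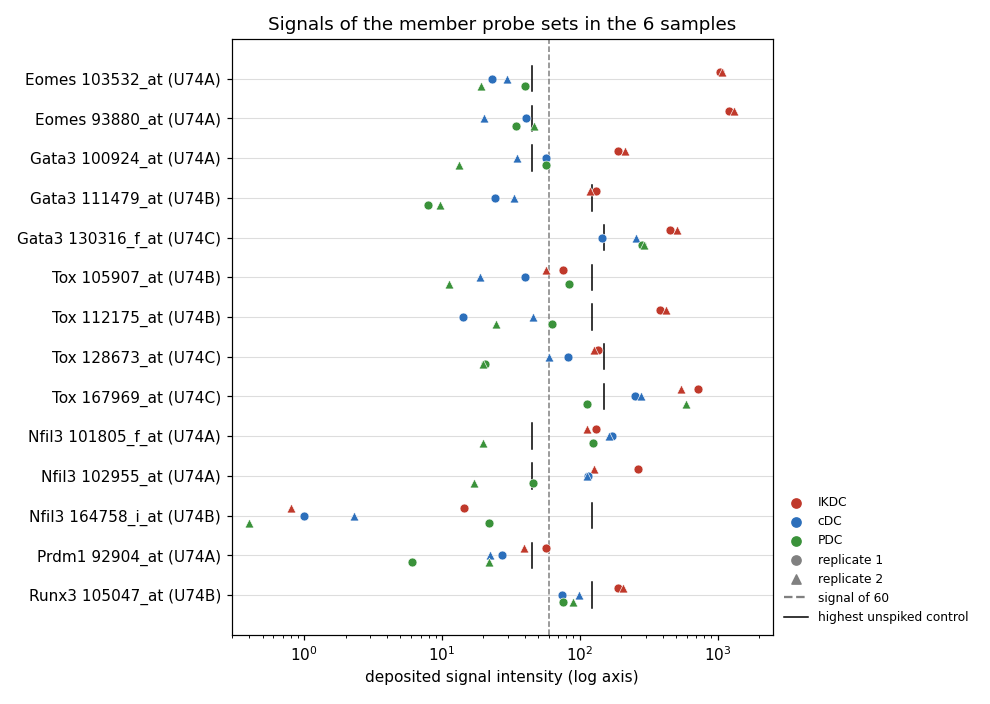
Deposited signal intensity (log axis) of the 14 member probe sets in the 6 samples, by population (colour) and replicate (circle 1, triangle 2), with the signal of 60 (dashed) and the brightest bacterial control that was not spiked in (black bar: 45.2 on U74A, 122.7 on U74B and 148.7 on U74C). Both Eomes probe sets lie above 1000 in IKDC and under 60 in the other 4 samples, while Prdm1 and 1 Nfil3 probe set stay under 60 throughout.

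Eomes, the T-box factor of NK cell and memory CD8 T cell maturation, was bright in both IKDC samples and dim elsewhere. Probe set 93880_at had signals of 1210.7 and 1316.3 in IKDC, 40.5 and 20.3 in cDC and 34.7 and 46.2 in PDC. Probe set 103532_at had 1036.7 and 1069.7 in IKDC, 23.2 and 29.5 in cDC and 40.3 and 19.3 in PDC. By both probe sets the IKDC samples lay far above the other 4, and cDC and PDC overlapped at signals within or close to the range of unspiked bacterial controls on U74A, which reached 45.2. Since both signals were under 60 in cDC and in PDC, the fold is a lower bound, the geometric mean in IKDC over 60. It was at least 21.0-fold for 93880_at and at least 17.6-fold for 103532_at, against either population. The fitted differences from cDC were 4.82 ± 0.33 and 4.66 ± 0.35 (adjusted p = 2.58e-05 and 3.08e-05), and those from PDC were 4.51 ± 0.33 and 4.58 ± 0.35 (adjusted p = 1.97e-05 and 2.11e-05). PDC and cDC differed by 0.31 ± 0.33 and 0.08 ± 0.35, with 95% intervals of -0.42 to 1.04 and -0.68 to 0.84. The Eomes calls held under each of the 16 alternatives run in both comparisons with IKDC.

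The 250 bases before the annotated start of the members were searched for 4 motifs on both strands, in RefSeq sequence of GRCm38.p6, whatever the signals of the members. Of the 7 genes 6 matched the table, with 7 starts, and Tox had no entry. The T-box motif TCACACC occurs in 3.33% of all 32851 windows of this length and the GATA motif AGATAA in 9.99%. The Runt motif TGTGGT occurs in 14% and the Nfil3 motif TTACGTA in 0.432%. None of the 4 was found before Eomes or Gata3, so their sequences carry no capitals, and the windows differ in base composition, with 46.4% G and C before Eomes and 70% before Gata3 beside a median of 52.4%. The Eomes window is chr9:118477939-118478188 (plus strand) and the Gata3 window is chr2:9878601-9878850 (minus strand). The absence says only that these letters are not in these windows.
Eomes: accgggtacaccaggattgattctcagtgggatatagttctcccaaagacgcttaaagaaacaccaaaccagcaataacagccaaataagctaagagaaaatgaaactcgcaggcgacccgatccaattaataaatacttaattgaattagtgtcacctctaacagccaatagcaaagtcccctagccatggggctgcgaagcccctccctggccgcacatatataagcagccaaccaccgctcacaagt
Gata3: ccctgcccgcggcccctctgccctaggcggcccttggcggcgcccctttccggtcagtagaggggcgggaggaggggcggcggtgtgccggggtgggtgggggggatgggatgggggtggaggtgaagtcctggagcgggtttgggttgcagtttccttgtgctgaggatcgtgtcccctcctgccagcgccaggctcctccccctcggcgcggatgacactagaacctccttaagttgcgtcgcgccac

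Gata3, a zinc finger factor of T cells and type 2 innate lymphocytes, was highest in IKDC by all 3 probe sets. Probe set 100924_at on U74A had signals of 189.9 and 213.6 in IKDC, 56.5 and 35.2 in cDC and 56.7 and 13.3 in PDC. Both IKDC samples were above the other 4, and cDC and PDC overlapped. The difference from cDC was 1.84 ± 0.47 (adjusted p = 0.0433) and that from PDC 2.24 ± 0.47 (adjusted p = 0.0185), a fold of at least 3.36 against either. Probe set 111479_at on U74B had 130.3 and 118.4 in IKDC, 24.4 and 33.2 in cDC and 7.9 and 9.7 in PDC, again with no overlap, but the IKDC signals lay on either side of the 122.7 that unspiked controls reached there. It differed from PDC by 2.50 ± 0.55 (adjusted p = 0.0312) and from cDC by 1.65 ± 0.55 (adjusted p = 0.131). Probe set 130316_f_at on U74C, whose suffix marks probes shared with related sequences, had 454.4 and 505.8 in IKDC, 145 and 254.6 in cDC and 281.4 and 294.4 in PDC. It gave 1.25 ± 0.38 against cDC (adjusted p = 0.0977) and 0.71 ± 0.38 against PDC (adjusted p = 0.46). The direction was thus shared by the 3 probe sets, and the cDC and PDC order was not: the first 2 had the higher mean in cDC and the third in PDC.

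The Gata3 calls were not firm. For 100924_at against cDC the call ended without IKDC replicate 1 (adjusted p = 0.217), IKDC replicate 2 (0.279), cDC replicate 1 (0.113) or cDC replicate 2 (0.212), with a pseudocount of 1 (0.0985), without the filter (0.0745) and without the intensity trend (0.052), while the log2 difference stayed between 1.28 and 2.15 over all alternatives. Against PDC it ended without IKDC replicate 1 (adjusted p = 0.139), IKDC replicate 2 (0.189) or PDC replicate 2 (0.0601). The call of 111479_at against PDC ended when any 1 of the 6 samples was left out, at adjusted p of 0.0523 to 0.26.

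Tox, a high mobility group factor needed early in NK cell development and in T cell development, had 4 probe sets that did not give 1 answer. Probe set 112175_at on U74B had signals of 383.5 and 419.1 in IKDC, 14.2 and 45.5 in cDC and 63 and 24.5 in PDC, a clear gap between IKDC and the other 4 samples. It was higher in IKDC than in cDC by 3.27 ± 0.53 (adjusted p = 0.00541), with all 4 dim signals under the 122.7 of unspiked controls, and differed from PDC by 2.88 ± 0.53 (adjusted p = 0.0121). Leaving out IKDC replicate 1 or 2 took these calls past the threshold, to adjusted p of 0.0536 and 0.0653 against cDC and 0.104 and 0.13 against PDC, and the call against PDC also ended without PDC replicate 2 (0.0585).

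The other Tox probe sets did not pass. On U74C 167969_at had 716.1 and 545.6 in IKDC, 250.6 and 278.4 in cDC, and 112.5 and 584.9 in PDC, so PDC replicate 2 fell within the IKDC range and PDC replicate 1 below all other samples. Its differences were 1.19 ± 0.59 from cDC (adjusted p = 0.313) and 1.21 ± 0.59 from PDC (adjusted p = 0.397), and without PDC replicate 2 the latter rose to 2.32 with adjusted p = 0.0255. Probe set 128673_at had 135 and 126 in IKDC, 82 and 59.6 in cDC and 20.4 and 19.7 in PDC, in 3 separate bands but all under the 148.7 that unspiked controls reached on U74C. It gave 0.77 ± 0.61 against cDC (adjusted p = 0.558) and 2.02 ± 0.61 against PDC (adjusted p = 0.115, or 0.0465 without the intensity trend). Probe set 105907_at on U74B stayed at 11.2 to 83.8 with overlapping IKDC and PDC samples.

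**Figure D2:**
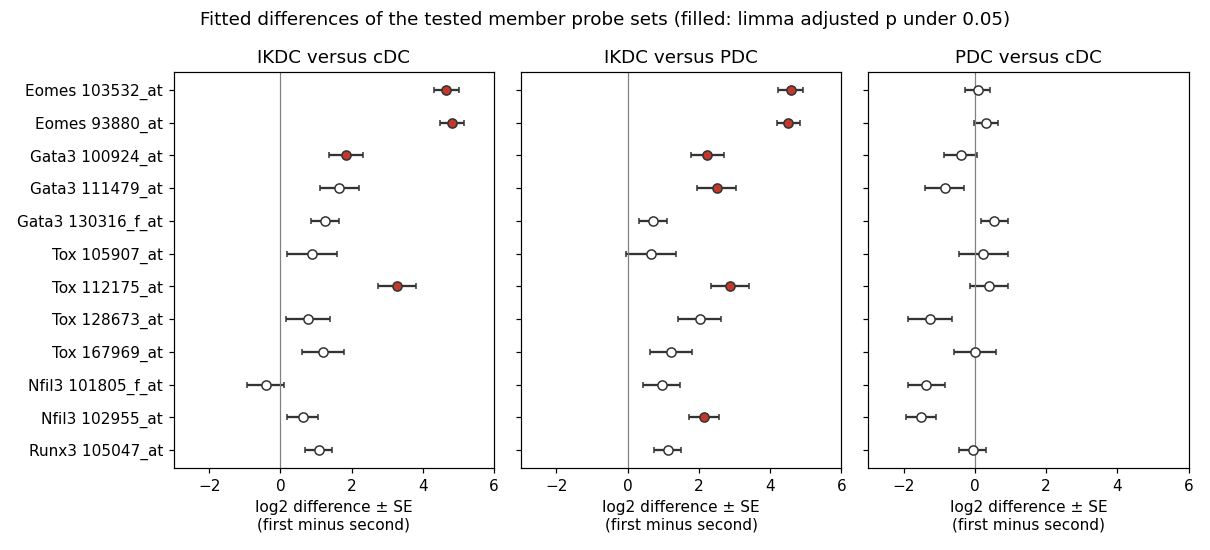
Log2 difference ± SE (x axis, first population minus second) of the 12 tested member probe sets in the 3 comparisons. Filled points have a limma adjusted p under 0.05, 4 in IKDC versus cDC, 6 in IKDC versus PDC and none in PDC versus cDC, and the 2 Eomes probe sets lie at 4.51 to 4.82 in both comparisons with IKDC.

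Nfil3 is a basic leucine zipper factor that acts early in the NK lineage and in cross-presenting dendritic cells. Both tested probe sets had their lowest mean in PDC, but by the second PDC replicate 1 lay within the IKDC range. Probe set 102955_at had signals of 264 and 125.8 in IKDC, 114.9 and 112 in cDC and 45.7 and 17.1 in PDC. IKDC and cDC were separated only by the narrow gap between 125.8 and 114.9, and both PDC samples were below the other 4. IKDC exceeded PDC by 2.14 ± 0.43 (adjusted p = 0.0154, at least 3.04-fold) and differed from cDC by 0.62 ± 0.43 (adjusted p = 0.488, 95% interval -0.33 to 1.57). The call against PDC ended without IKDC replicate 1 (adjusted p = 0.243) or PDC replicate 2 (0.0692). PDC against cDC gave -1.52 ± 0.43 (adjusted p = 0.093), or -1.97 with adjusted p = 0.0462 without PDC replicate 1.

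The second Nfil3 probe set, 101805_f_at, whose suffix marks probes shared with related sequences, had the reverse order of IKDC and cDC. It stood at 130.5 and 112.9 in IKDC, 171.1 and 162.6 in cDC and 123.9 and 19.9 in PDC. IKDC minus cDC was -0.41 ± 0.52 (adjusted p = 0.732), so that both probe sets leave the direction between these populations unsettled. The PDC samples differed widely here, and PDC minus cDC was -1.37 ± 0.52 (adjusted p = 0.232), or -2.35 with adjusted p = 0.0065 without PDC replicate 1. IKDC minus PDC was 0.96 ± 0.52 (adjusted p = 0.459), or 1.94 with adjusted p = 0.0126 without PDC replicate 1 and -0.03 without PDC replicate 2. PDC replicate 1 is the sample with the Gapdh ratio of 5.996 on U74A, whose part in these values was not tested. The third probe set, 164758_i_at, built from fewer probes than usual, stayed at 0.4 to 22 and was not tested.

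Runx3, a Runt domain factor of cytotoxic lymphocytes, had 1 probe set, 105047_at on U74B, with signals of 189.6 and 206.6 in IKDC, 74.4 and 99.2 in cDC and 76.1 and 88.7 in PDC. Both IKDC samples were above the other 4, which overlapped and all lay under the highest unspiked control of 122.7. The difference was 1.07 ± 0.38 from cDC (adjusted p = 0.164, 95% interval 0.21 to 1.93) and 1.12 ± 0.38 from PDC (adjusted p = 0.18, 0.26 to 1.98), and neither passed. Samples that do not overlap with the IKDC signal higher were found for 24.9% of all tested probe sets against cDC and 21.7% against PDC. PDC minus cDC was -0.06 ± 0.38, with a 95% interval of -0.91 to 0.80.

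Runx3 is shown because it was the only member with a match to any of the 4 motifs. Of its 2 starts in the table, the one at the lower coordinate had 2 Runt matches, in capitals in the window chr4:135120395-135120644 (plus strand), and the other had none. Both read as the reverse complement of the motif as spelled above, and they overlap neither each other nor a match to another motif.
Runx3: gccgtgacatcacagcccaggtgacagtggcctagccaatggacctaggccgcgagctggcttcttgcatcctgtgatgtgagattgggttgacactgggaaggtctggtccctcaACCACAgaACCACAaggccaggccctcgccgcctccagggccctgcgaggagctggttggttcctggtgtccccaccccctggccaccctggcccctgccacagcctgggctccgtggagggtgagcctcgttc

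Prdm1, the repressor Blimp-1, had 57.1 and 39.3 in IKDC, 27.5 and 22.2 in cDC and 6.1 and 22 in PDC by its probe set 92904_at. All 6 signals were under 60, so it was not tested, and 5 of them were within the range of unspiked controls. Prdm1 is also active in plasma cells. The list of plasma cell and B cell markers mixes genes of both, and its levels were uneven between the samples. The 12 tested of 13 summed to 12113 and 7582 in IKDC, 2524 and 2727 in cDC and 15799 and 11919 in PDC. In IKDC against cDC 3 of the 12 were higher and none lower, and in PDC against cDC 4 were higher and none lower. Over all genes 3.5% and 2.25% were higher in these comparisons. In IKDC the sum was led by the immunoglobulin gene Igha at 5908.6 and 4204.8. Jchain had 622.8 and 548.8 in IKDC against 67 and 173.5 in cDC. Sdc1, which encodes the plasma cell antigen CD138, had 49.5 and 59.8 in IKDC against 84 and 60.8 in cDC.

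Gata3, Tox, Eomes and Runx3 are also transcribed in T cells, and T cell markers were not uniform across the samples. Of 13 markers 8 were tested, 4 rose in IKDC against cDC and none fell (2 to 5 with 1 sample left out), and the 8 summed to 1949 and 1393 in IKDC, 871 and 618 in cDC and 3468 and 4007 in PDC. In PDC the sum was led by Cd8b1 at 2244.5 and 2685.6. Cd3g, a chain of the T cell receptor complex, had signals of 466.5 and 172.9 in IKDC, 22.5 and 5.8 in cDC and 66.2 and 5.2 in PDC, and rose by 3.38 ± 0.66 against cDC (adjusted p = 0.0108, or 0.177 without IKDC replicate 1 and 0.0967 without cDC replicate 2). Thy1 stood at 397.1 and 281 in IKDC, 21.2 and 18.7 in cDC and 160.3 and 80.4 in PDC. Cd28 had 359.9 and 307 in IKDC, 56.8 and 46.7 in cDC and 183 and 223.2 in PDC. In PDC against cDC 3 of the 8 were higher and none lower, and in IKDC against PDC 1 was higher and 2 lower. Over all genes 2.25% were higher and 2.75% lower in the first of these, and 2.71% and 3.17% in the second. Cd8b1 also rose, at 84 and 80 in IKDC against 26.1 and 6.1 in cDC, but the call ended without either IKDC sample or cDC replicate 2. Its log2 difference was 1.22 without cDC replicate 2 and 2.15 without cDC replicate 1. Cd247, at 186.6 and 158.6 against 69.6 and 19.2, did not pass. Lat had 175.3 and 161.7 in IKDC against 259.6 and 213.7 in cDC, and Cd4 177.5 and 108.3 against 268.7 and 266. Both were thus lower in IKDC, without passing. Cd3d overlapped, at 101.9 and 123.9 against 146.1 and 41.3. NK cells are known to transcribe Thy1, Cd247 and Cd3g as well. The part of T cells in the levels of the factors was not tested. Erythroid markers were higher than in cDC in IKDC (4 of 4 tested) and in PDC (3 of 4), with these 4 of 6 listed summing to 14437 and 17202 in IKDC, 788 and 1736 in cDC and 22555 and 9572 in PDC, and their part was likewise not tested.

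**Figure D3:**
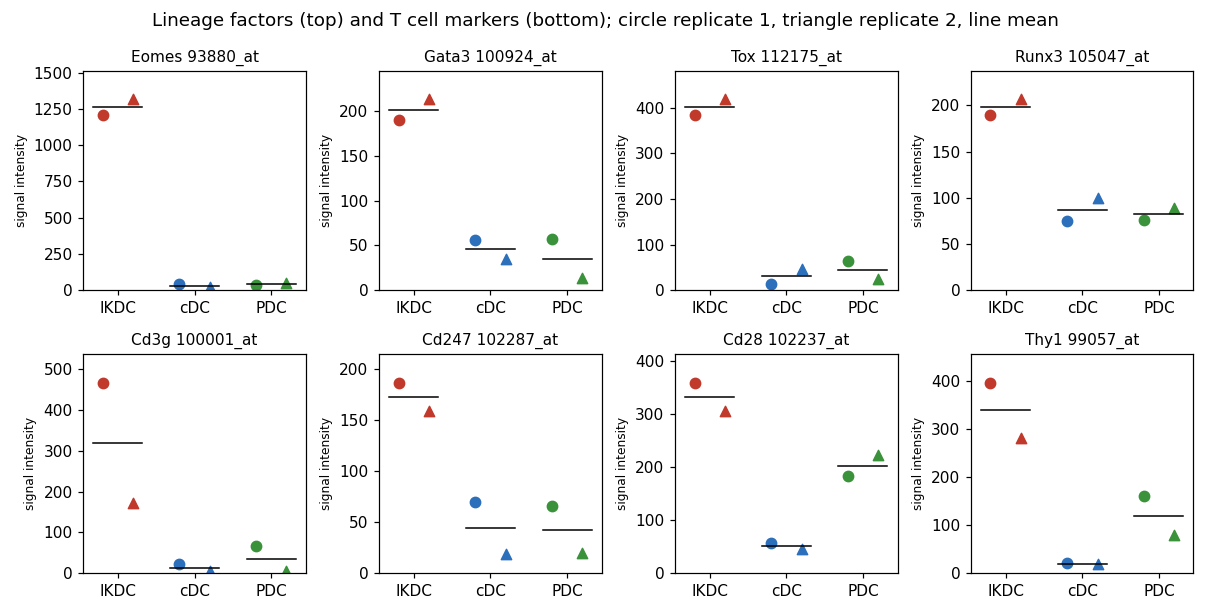
Signal intensity (linear axis from 0, scaled for each panel) of 4 lineage factors (top, each by its probe set with the smallest adjusted p against cDC) and 4 T cell markers (bottom) in the 6 samples, with the mean of each population as a line. All genes shown were higher in the IKDC samples than in the cDC samples, with Cd3g at 466.5 and 172.9 in IKDC and at most 22.5 in cDC. Runx3 and Cd247 did not pass against cDC. Of the 8 T cell markers tested, Lat and Cd4, not shown, were lower in IKDC and Cd3d overlapped.

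Other factors of the NK and innate lymphoid programme differed in part. Of 27 listed genes 20 were tested, with 4 higher and none lower in IKDC against cDC, 4 higher and none lower against PDC, and none higher and 2 lower in PDC against cDC. The background over genes was 3.5% higher and 4.07% lower, 2.71% and 3.17%, and 2.25% and 2.75% in these comparisons. Their median log2 difference was 0.16, 0.53 and -0.41, beside 0.01, 0.01 and 0 over all genes. The 4 higher against cDC lost calls when any 1 of the IKDC or cDC samples was left out. The 4 against PDC lost Smad3 and Runx1 when either IKDC sample was left out, and Runx1 also without PDC replicate 2. The 2 lower in PDC lost Runx1 without cDC replicate 1, cDC replicate 2 or PDC replicate 2. Stat4, which carries interleukin 12 signals, had 1155.2 and 1197.1 in IKDC, 122.4 and 83.3 in cDC and 144.6 and 50.5 in PDC (3.35 ± 0.40 against cDC, adjusted p = 0.000465). Ets1, needed for NK cell development, had 721.8 and 803 in IKDC, 175.7 and 106.2 in cDC and 328.9 and 233.6 in PDC, and rose by 2.34 ± 0.38 against cDC (adjusted p = 0.00463, or 0.0613 without IKDC replicate 2). The inhibitor gene Id2, which NK cells and cDC both need, had 3781.4 and 3010.6 in IKDC and 2575.9 and 2810.2 in cDC but 433.2 and 253.1 in PDC. Id2 thus shared with Nfil3 102955_at the order with PDC lowest, at 3.29 ± 0.30 above PDC (adjusted p = 8.94e-05) and 0.32 ± 0.30 from cDC (adjusted p = 0.624).

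The relatives and partner of the members gave other patterns, and were picked after their values were seen, except Runx1. Runx1 was low in PDC at 42.7 and 34.9, against 171.6 and 219.4 in IKDC and 178.9 and 276.4 in cDC. It fell by 2.13 ± 0.39 in PDC against cDC (adjusted p = 0.0161), a call that ended without either cDC sample (0.0582 and 0.16) or PDC replicate 2 (0.0552). Cbfb, the shared partner of Runt domain factors, had 1757.4 to 2401.5 in all 6 samples with a difference of -0.10 ± 0.26 between IKDC and cDC (adjusted p = 0.888). Tox2, the close relative of Tox, had 1654.9 to 2884.9 and differed by 0.14 ± 0.30 (adjusted p = 0.859).

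Among 14 tested of 16 other T cell lineage factors, 6 were higher and 1 lower in IKDC against cDC. Against PDC 4 were higher and none lower, and in PDC against cDC 2 were higher and 3 lower. Over all genes the shares were 3.5% higher and 4.07% lower, 2.71% and 3.17%, and 2.25% and 2.75% in these comparisons. The medians of the list were 0.91, 0.76 and 0.07. The 6 became 3 without any 1 of the IKDC or cDC samples, and the 4 became 1 without either IKDC sample and 2 without either PDC sample. Of the 2 higher in PDC, Tcf12 was no longer called without cDC replicate 1. Of the 3 lower, Maf was no longer called when any 1 of the 6 samples was left out. Nfatc2 was no longer called without cDC replicate 1, cDC replicate 2 or PDC replicate 1. Satb1, a chromatin organiser of thymocytes, had 5295.7 and 4979.1 in IKDC against 1150.9 to 1365.9 in the other 4 samples. Notch1, the receptor that starts T cell commitment, had 280.7 and 330.9 in IKDC, 457.6 and 728.9 in PDC and 41.6 and 27.7 in cDC. It rose against cDC in IKDC (2.68 ± 0.33, adjusted p = 0.000568) and in PDC (3.57 ± 0.33, adjusted p = 0.000152). Bcl6 was lower in IKDC than in cDC at 140.5 and 141.9 against 484.1 and 483.5 (-1.67 ± 0.30, adjusted p = 0.00614), which ended without either IKDC sample (0.0688 and 0.068) or either cDC sample (0.0592 and 0.062).

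Most tested genes known as targets of T-bet or Eomes were higher in IKDC. Against cDC 3.5% of all genes were higher in IKDC, and against PDC 2.71%. Ncr1, Il2rb and Prf1 among these targets were also counted as NK cell markers above. Of 14 listed 11 were tested, with 9 higher and none lower in IKDC against cDC, 8 higher and 1 lower against PDC, and 1 higher and none lower in PDC against cDC, and with medians of 2.28, 2.38 and 0.09. Without IKDC replicate 1, IKDC replicate 2 or cDC replicate 2 the first count was 5, and without either IKDC sample the second was 5. Ncr1, the gene of the activating receptor NKp46, stood at 1357.3 and 1608.1 in IKDC, 38.8 and 40.1 in cDC and 84.2 and 60.9 in PDC (4.75 ± 0.30 against cDC, adjusted p = 1.79e-05). Il2rb, a chain of the interleukin 15 receptor, had 2924 and 4342.8 in IKDC and 401.3 to 562.5 elsewhere, and Prf1, encoding perforin, had 826.1 and 851.9 in IKDC and 61.1 to 126.8 elsewhere. The 2 that were called in neither comparison were Hlx and Zeb2, transcription factor genes named here after their values were seen, with means in IKDC and cDC of 93.2 and 294.2 for Hlx (-1.51 ± 0.46, adjusted p = 0.0883) and 94.5 and 124.5 for Zeb2 (-0.29 ± 0.53, adjusted p = 0.825). The chemokine receptor gene Cxcr3 had another order, with 1116.8 and 1361.8 in PDC, 544.6 and 603.5 in IKDC and 217.9 and 208.5 in cDC. It was 1.08 lower in IKDC than in PDC on the log2 scale (-1.08 ± 0.27, adjusted p = 0.0423), a call that ended when any 1 sample was left out (0.0564 to 0.308). All 3 comparisons share samples, and this list was written with results of these data known.

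Dendritic cell lineage factors were called lower in IKDC more often than higher. This list includes Nfil3 and shares Id2, Zeb2 and the untested Runx2 with the NK list. Of 15 tested of 16, none was higher and 5 were lower in IKDC against cDC. Against PDC 1 (Id2) was higher and 5 were lower, and in PDC against cDC 5 were higher and 4 lower. Over all genes the shares were 3.5% higher and 4.07% lower, 2.71% and 3.17%, and 2.25% and 2.75% in these comparisons. The medians of the list were -0.58, -0.84 and -0.85. Of the 5 lower against cDC, Bcl11a and Irf8 were no longer called when any 1 of the IKDC or cDC samples was left out. Of the 5 higher in PDC, Bcl11a was no longer called when any 1 of the 6 samples was left out. Irf8 was no longer called there without any 1 of the cDC or PDC samples, and Irf7 without PDC replicate 2. The 4 lower in PDC became 2 without cDC replicate 1. Batf3, required for cross-presenting dendritic cells, had 83.2 and 77.3 in IKDC against 1123.6 and 1099.2 in cDC (-3.55 ± 0.32, adjusted p = 8.17e-05). Spi1, encoding the myeloid factor PU.1, had 50.3 and 86.2 against 758.8 and 616.5. Tcf4, the E protein that defines PDC, had 472.3 and 433.9 in IKDC, 474.3 and 553 in cDC and 3220.4 and 4105.6 in PDC.

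**Figure D4:**
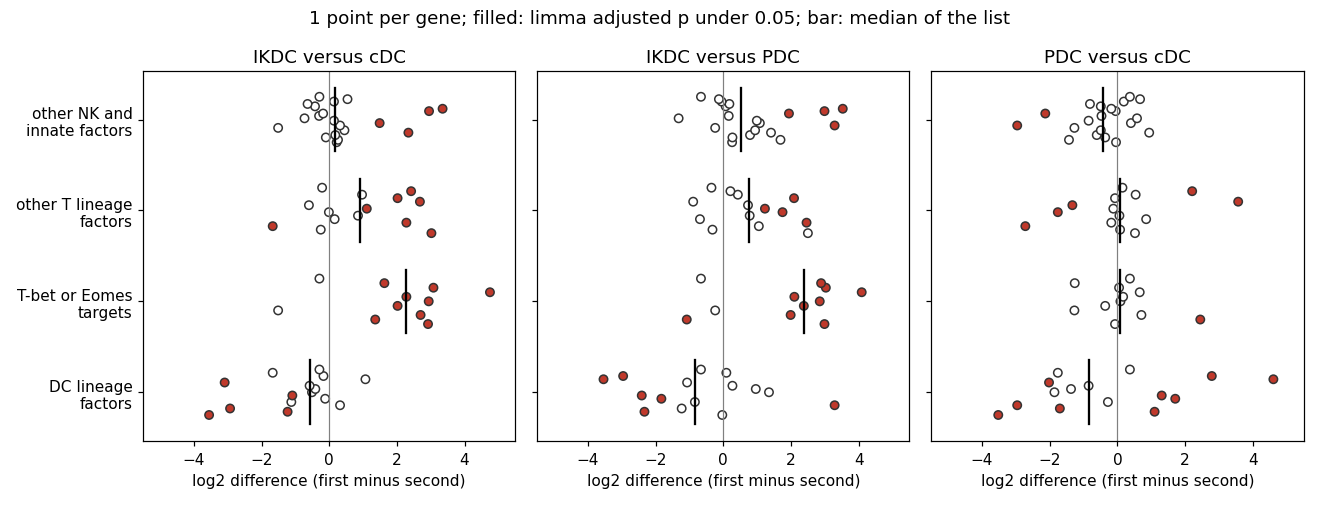
Log2 difference (x axis, first population minus second) of each tested gene in 4 lists of factors and targets, 1 point per gene, filled where the limma adjusted p was under 0.05, with the median as a bar. The T-bet or Eomes targets have medians of 2.28 and 2.38 in the comparisons of IKDC and 0.09 in PDC versus cDC.

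The genes with the profile most like each called member probe set were found by the root mean square distance between log2 profiles over the 6 samples, each centred on its mean, within the same array type. With 6 samples that fall into 3 pairs this is a description only. With Pearson correlation as the measure, most of the genes named below were replaced. Gimap4 stayed for Eomes 103532_at and Chpf for Gata3 100924_at. None stayed for Eomes 93880_at, Tox 112175_at, Gata3 111479_at or Nfil3 102955_at, whose closest genes were then Pik3cd, Dusp11, Esyt2 and Rps19. Eomes 103532_at was closest to Ncr1 (distance 0.281), Gimap4 (0.294) and Klra3 (0.324), and 93880_at to Ncr1 (0.333), Gimap4 (0.511) and Cst7 (0.537). Tox 112175_at was closest to Lax1 (0.286), Adamts14 (0.287) and Il2rb (0.322). Gata3 100924_at was closest to Chpf (0.195), Myc (0.212) and Slc2a1 (0.231), and 111479_at to Chsy1 (0.219), Mthfd1l (0.219) and Mylip (0.223). Nfil3 102955_at was closest to Junb (0.291), Bhlhe40 (0.298) and Dnajb4 (0.342), which like Nfil3 were higher in IKDC replicate 1 than in replicate 2, at 1720.4 and 880.8 for Junb, 1526.7 and 452 for Bhlhe40 and 276.8 and 106.8 for Dnajb4.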

How the data were processed

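The labels' protocols give RNA isolation by Trizol and RNeasy and the Affymetrix small sample protocol with 2 rounds of amplification, which leaves less signal far from the 3' end. The authors deposited linear signal intensity values, made per the labels in GCOS 1.1.1 with default settings and global scaling to 150, and the submitters' processing notes name MAS5. Detection calls were not used. Symbols were taken from the platform annotation and brought to GRCm38.p6 names by gene identifier, leaving unnamed any probe set with more than 1.

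Values were analysed as log2(signal + 16). After removal of controls, 23285 probe sets reached 60 on 2 or more of the 6 arrays of a type. One limma 3.58.1 model per array type (R 4.3.3, eBayes, trend on) held the 3 populations, and Benjamini-Hochberg adjustment ran across the 3 types together, with calls at 0.05. The code was tested on simulated data. A listed gene was read from its brightest tested probe set. The text names all member probe sets, list genes by smallest adjusted p, and 3 similar genes per called probe set. Alternatives changed the pseudocount, filter, normalization, samples fitted, trend, adjustment, replicate block or left out 1 sample, and those for the lists were added after seeing the data. Members and lists were chosen with earlier results of these data known. The number of arrays limits the precision.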

Additional observations from a re-analysis of the deposited data

How the results depend on the processing

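Under the 16 alternatives no called member difference changed sign. Calls of member probe sets in IKDC against cDC numbered 3 or 4 under 10 settings and 2 to 4 when a sample was left out. In IKDC against PDC there were 6 or 7 under 9 settings, 3 of 5 tested with a filter at 200, which leaves out 3 of the called probe sets, and 2 to 6 with a sample left out. In PDC against cDC the count was 0 to 2 with a sample left out. With the replicate number as a block, 1 probe set passed in PDC against cDC (Nfil3 102955_at, adjusted p = 0.0247), and 4 and 6 in the comparisons of IKDC. Same-numbered samples shared little beyond the number, with correlations of their deviations of -0.023, 0.081 and 0.07, and the labels name no shared batch. Differences that did not pass changed sign in 2 cases under another setting and in 14 with a sample left out. In PDC against cDC Tox 167969_at gave 0.04 with a pseudocount of 64 and 0.07 after median centring, beside -0.01. With a sample left out the range there was -1.06 to 0.25 for Gata3 100924_at, -0.26 to 0.41 for Eomes 103532_at, -0.01 to 0.63 for Eomes 93880_at, -0.23 to 0.12 for Runx3 105047_at, -0.70 to 1.18 for Tox 105907_at, -0.12 to 0.91 for Tox 112175_at, -1.12 to 1.1 for Tox 167969_at, and in IKDC against PDC -0.03 to 1.94 for Nfil3 101805_f_at and -0.29 to 1.59 for Tox 105907_at.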
